A study of Caenorhabditis elegans with 2 samples.

Results

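The gas-sensing guanylate cyclase genes of Caenorhabditis elegans were examined for recovery of the transcription factor EGL-13 in chromatin. The group was a named list of 8 genes out of 19865 protein-coding genes: the receptor-type cyclase gcy-9 and the soluble cyclases gcy-31 and gcy-33 of the BAG neurons, and the soluble cyclases gcy-32, gcy-34, gcy-35, gcy-36 and gcy-37 of the URX neurons. No measured value entered the rule that lists them, but the list was made with earlier results of these data known. A binding region was given to a gene when its summit, the base of highest signal, lay between 2000 bp upstream of the annotated gene start and the gene end.

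Guanylate cyclases make the second messenger cyclic GMP, which opens the TAX-2/TAX-4 cation channel of sensory neurons and so turns a chemical stimulus into an electrical response. The BAG neurons use GCY-9 to detect carbon dioxide and GCY-31 with GCY-33 to detect a fall in oxygen. The URX neurons, with the related AQR and PQR neurons, use GCY-35 with GCY-36 to detect a rise in oxygen, and gcy-32, gcy-34 and gcy-37 are expressed in the same cells. EGL-13, a Sox-family protein with an HMG-box DNA-binding domain, is needed in worm genetics for BAG and URX neurons to take on their gas-sensing identity. These genes are therefore textbook candidates for its targets.

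The data are ChIP-seq (sequencing of immunoprecipitated chromatin) from whole hermaphrodite larvae at the L1 stage. Their strain, GOU883, is a stable transgenic line in which EGL-13 carries GFP and FLAG at its C terminus. Larvae were bleach-prepared, synchronized by starvation at L1 and collected 6 h later, the chromatin was sonicated, and the antibody was against GFP. Both libraries, biological replicates 3 and 4 of the single group, came from this strain, and no untagged or mutant group was analysed here. BAG and URX make up a few cells of the larva, so strong recovery in few cells and weak recovery in many cells cannot be told apart, and no expression values were at hand to check the tissue against markers. The authors deposited an optimal list of 2294 regions, which are the 2294 strongest of the pooled reads. Their lists of 30000 regions each for the pooled reads, replicate 3 and replicate 4 reach down into background. Regions were ranked within a list by the signal value of the authors' peak caller, rank 1 being the strongest. Each list has its own signal scale, which is not given, so between lists a site is placed by its rank, and a ratio of replicate signals is read only against the same ratio at all optimal regions. Read depth is unknown from the files used here, so the support of a site is given as its signal and rank in each replicate, with no error beyond those 2 values. All coordinates are 1-based on ce11.

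All 3 BAG genes and 2 of the 5 URX genes carried an optimal region. They were gcy-9, gcy-31, gcy-33, gcy-35 and gcy-36, with 6 optimal regions among them because gcy-33 had 2. Across all protein-coding genes, 12.1% had an optimal summit in the same window, and among 5368 genes whose length lay within the range of these 8 (2880 to 8523 bp), 15.5% did. The cyclase genes are long, with a median of 6344 bp against 2032 bp for all genes, so the second share is the closer comparison. With 1 group and a chosen list of 8 genes, the counts are given as a description without a test. The gene order by strongest pooled signal was gcy-33 (223), gcy-36 (84.5), gcy-31 (78.7), gcy-9 (73.0), gcy-35 (71.2), gcy-37 (61.3), gcy-34 (54.6) and gcy-32 (41.9). The lowest optimal signal was 65.3, so gcy-9 and gcy-35 lay just above the limit of the list and gcy-37 just below it.

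**Figure D1:**
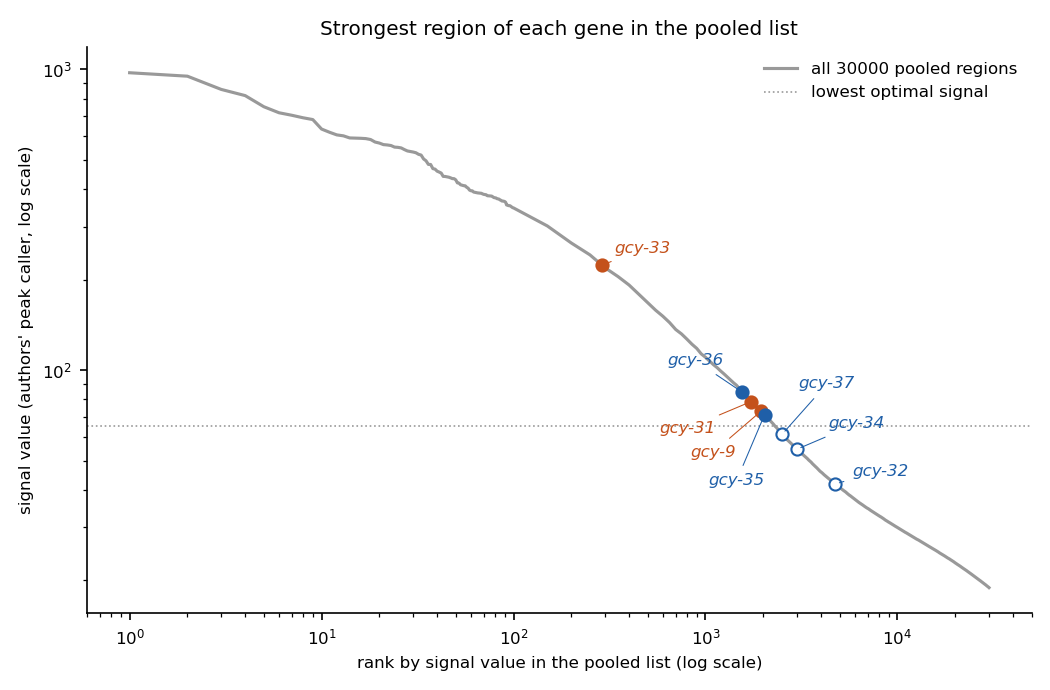
Signal value of the strongest region of each cyclase gene (y axis, authors' peak caller, log scale) against its rank among the 30000 pooled regions (x axis, log scale), with BAG genes in orange, URX genes in blue, and filled points for optimal regions. gcy-33, at rank 290, stands well above the other 7 genes, which fall between ranks 1553 and 4750 on both sides of the lowest optimal signal of 65.3 (dotted line).

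The bases at 5 optimal sites and 1 weaker site are shown in gene orientation, because these sites lie at differing distances from the gene starts and can be compared directly only by their sequence. Each stretch has its summit at base 101, except that of gcy-36, which holds the 97 bases before the annotated start and ends 4 bases short of the summit. Capitals mark AACAAT (the core letters known for Sox HMG boxes), CCGGAA (the core of ETS factors, of which ETS-5 acts in BAG), the repeat GAGAGA, the hexamer GACGCA, the palindrome CACGTG or the shorter string CCGGA, on either strand. In the gcy-31 stretch the gene starts, with its start codon, at base 161.
gcy-33 upstream (chrV:12001998-12002198, minus strand): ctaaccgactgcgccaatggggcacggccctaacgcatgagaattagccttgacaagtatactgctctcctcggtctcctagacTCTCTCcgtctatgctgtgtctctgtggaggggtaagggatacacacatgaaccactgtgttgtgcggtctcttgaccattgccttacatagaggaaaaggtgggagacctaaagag
gcy-33 intron (chrV:11997473-11997673, minus strand): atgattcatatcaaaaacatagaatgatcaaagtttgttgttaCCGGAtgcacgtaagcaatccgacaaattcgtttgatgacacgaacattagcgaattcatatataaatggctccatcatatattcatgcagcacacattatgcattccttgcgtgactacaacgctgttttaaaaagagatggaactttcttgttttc
gcy-31 start (chrX:2427464-2427664, minus strand): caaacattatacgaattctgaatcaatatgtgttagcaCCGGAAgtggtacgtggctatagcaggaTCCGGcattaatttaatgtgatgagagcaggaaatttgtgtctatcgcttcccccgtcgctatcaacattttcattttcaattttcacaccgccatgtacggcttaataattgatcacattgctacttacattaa
gcy-9 intron (chrX:11336490-11336690, minus strand): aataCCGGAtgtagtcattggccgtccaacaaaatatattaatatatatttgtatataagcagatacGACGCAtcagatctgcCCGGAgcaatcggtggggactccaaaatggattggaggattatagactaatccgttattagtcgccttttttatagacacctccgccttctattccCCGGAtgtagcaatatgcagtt
gcy-9 upstream (chrX:11337982-11338182, minus strand): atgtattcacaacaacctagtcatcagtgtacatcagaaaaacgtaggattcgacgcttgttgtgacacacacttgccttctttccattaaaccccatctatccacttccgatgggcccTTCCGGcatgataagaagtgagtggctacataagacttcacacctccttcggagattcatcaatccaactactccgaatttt
gcy-36 start (chrX:15478920-15479016, plus strand): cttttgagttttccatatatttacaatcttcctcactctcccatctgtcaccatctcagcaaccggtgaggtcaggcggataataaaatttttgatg

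AACAAT lay within 50 bp of the summit at none of the 6 optimal sites of the cyclase genes, nor at the weaker sites searched near the starts of gcy-9, gcy-32, gcy-34 and gcy-35, 10 sites in all. It was present in 6.15% of all optimal regions and 11.7% of all pooled regions, so its absence from 6 sites is also the common outcome elsewhere. GAGAGA or its reverse complement TCTCTC, found at 25.4% of all optimal and 8.37% of all pooled summits, lay 14 bp from the gcy-33 upstream summit and 8 and 43 bp from the gcy-35 summit. GACGCA, at 15.3% of optimal and 3.84% of pooled summits, lay 31 bp from the gcy-9 intron summit, where TGCGTC is its reverse complement. CCGGAA (reverse complement TTCCGG; 4.75% of optimal and 4.06% of pooled summits) lay 21 bp from the weaker gcy-9 upstream summit, and the copy capitalised at gcy-31 is outside the 50 bp searched. CACGTG, its own reverse complement, was at none of the 10 sites, and at 4.27% of optimal and 2.15% of pooled summits. None of these hexamers overlaps another in the stretches shown. A match describes letters only, and a missing match says only that those letters are not in the window.

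gcy-33, which encodes a soluble cyclase of BAG, had the strongest region of all 8 genes and a second one inside the gene. The upstream region (chrV:12001906-12002289) had its summit 301 bp before the gene start (WBGene00001553, chrV:11995805-12001797, minus strand). Its pooled signal was 223 and its rank 290, at or above 87.4% of the optimal list, and its −log10 q of 3.36 equalled the highest value in that list. In replicate 3 the highest such value, 3.60, was shared by this site and 3 others. These were the intron sites of gcy-33 (rank 1248) and gcy-9 (rank 1745) and the gcy-31 start site (rank 1856). A top value therefore does not single out a site. Replicate 3 gave a signal of 139 at rank 319 and replicate 4 gave 87.0 at rank 261. Both replicates thus placed it near the same depth of their lists, with summits 39 and 5 bp from the pooled one. A tRNA gene (WBGene00014406, chrV:12002176-12002260) lay 78 bp from the summit and the nearest edge of the noncoding RNA gene F57F5.7 33 bp from it, and the first bases of the printed gcy-33 upstream stretch run through both. Within 200 bp of a tRNA, snoRNA or snRNA gene lay 7.02% of all optimal and 1.69% of all pooled summits. The part of the tRNA gene in this signal was not tested. The summit also lay 955 bp before cpr-9, a cysteine protease gene transcribed away from gcy-33, so the site stands between a divergent pair of genes.

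The region inside gcy-33 (chrV:11997381-11997764) lay in intron 6, which is 629 bp long, 4224 bp into the gene. It had a pooled signal of 101 at rank 1169, close to the optimal median of 102. Replicate 3 gave 62.3 at rank 1248 and replicate 4 gave 35.5 at rank 1406. The summit was 391 bp upstream of the 5′ end of the short gcy-33 transcript F57F5.2b.1 (chrV:11995868-11997182), so it is internal to the long transcripts and upstream of the short one. No noncoding RNA gene lay within 200 bp of this summit.

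The other 6 pooled regions of gcy-33 were weaker. The strongest, in a coding exon 5075 bp from the start, had a pooled signal of 41.8 at rank 4763, with a replicate 3 signal of 40.2 at rank 2453 and no replicate 4 summit within 100 bp. A region in intron 6 at 4005 bp (rank 16873) had a replicate 3 summit at rank 3047 and none of replicate 4 within 100 bp. Both are regions that replicate 3 carried alone. In intron 4, the summit at 3081 bp (rank 7185) had support in replicate 3 at rank 11878 and the summit at 2881 bp (rank 18398) in replicate 4 at rank 8993. The summits 1661 and 1966 bp upstream (ranks 13033 and 27695) lay inside cpr-9, the former without a summit in either replicate and the latter with one in replicate 4 at rank 10942. None of these 6 had support in both replicates within 100 bp. The replicate 4 summit at 2970 bp (rank 8993) was just beyond that distance from the summit at 3081 bp. At its other end gcy-33 overlaps C52E4.7, on the opposite strand.

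gcy-31, which encodes the soluble cyclase that acts with GCY-33 in oxygen sensing, had its optimal region at the gene start. The region (chrX:2427372-2427755) had its summit 60 bp upstream of the start of gcy-31 (WBGene00001551, chrX:2419955-2427504, minus strand). Here the annotated start is the start codon, with 0 bp of 5′ UTR, and annotated 5′ ends in C. elegans are often trans-splice sites and not the first transcribed base. The pooled signal was 78.7 at rank 1732. Replicate 3 gave 48.1 at rank 1856 and replicate 4 gave 32.3 at rank 1657, so the site was among the 2294 strongest of each. No other protein-coding gene had this summit in its window, the next gene on that side, gid-2, being 2354 bp away. The remaining 2 pooled regions lay in introns: the summit at 6296 bp (rank 10095), which is also 1331 bp upstream of the glutamate receptor gene glr-7, had weak support in both replicates (ranks 15666 and 21608), and the summit at 2634 bp in intron 3 (rank 16127) had none within 100 bp. In replicate 4 a separate summit at 2474 bp reached rank 5703.

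gcy-9, the receptor-type cyclase through which BAG senses carbon dioxide, had its optimal region in intron 4, and a weaker region at its start. The intron region (chrX:11336398-11336781) lay 1293 bp into the gene (WBGene00001536, chrX:11332110-11337883, minus strand), in an intron of 731 bp. Its pooled signal was 73.0 at rank 1942. Replicate 3 gave 50.4 at rank 1745, but replicate 4 gave 22.2 at rank 3545, below its 2294 strongest. The ratio of the replicate 3 to the replicate 4 signal was 2.28, higher than or equal to that of 76.6% of the optimal regions with both summits, whose median was 1.70 and whose quartiles were 1.33 and 2.22. It was the highest such ratio of the 6 optimal sites. The weaker region (chrX:11337890-11338273) had its summit 199 bp upstream of the gene start, with a pooled signal of 57.1 at rank 2790. Replicate 3 gave 31.9 at rank 3593 and replicate 4 gave 25.4 at rank 2647. In replicate 4 this upstream region was therefore above the intron region, and in replicate 3 below it. The summit also lay in the window of aco-1, which encodes a cytosolic aconitase and starts 1990 bp beyond the gcy-9 start in the opposite direction.

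The other 5 pooled regions of gcy-9 ranked from 9187 to 27648. The summit at 4582 bp in intron 20, with a signal of 31.0, had support in both replicates at ranks 11328 and 12274. Those at 3191 bp in a coding exon and 1088 bp in intron 4 had support in replicate 4 alone (ranks 29016 and 7224), and the summit 1858 bp upstream, which is 133 bp before aco-1, in replicate 3 alone (rank 24604). The summit in the 3′ UTR at 5485 bp had none. The gene end overlaps that of npr-9, a neuropeptide receptor gene on the other strand.

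gcy-36, which encodes a partner of GCY-35 in sensing a rise in oxygen, had its optimal region across the gene start. The region (chrX:15478828-15479211) had its summit 3 bp inside the annotated 5′ UTR of gcy-36 (WBGene00001556, chrX:15479017-15485711, plus strand). The pooled signal was 84.5 at rank 1553, the second of the 8 genes. Replicate 3 gave 44.9 at rank 2080 and replicate 4 gave 36.1 at rank 1368, both among the 2294 strongest. Their summits were 68 and 10 bp from the pooled summit, the widest offset of replicate 3 among the 6 optimal sites. The summit also fell 1611 bp upstream of exc-1, a gene needed for the excretory canal and transcribed the other way. The weaker pooled regions were 3: a coding exon summit at 5786 bp (rank 10226) with a replicate 4 signal of 22.2 at rank 3532 and none in replicate 3, a summit 1319 bp upstream of gcy-36 and 289 bp upstream of exc-1 (rank 15349), and a summit at 2487 bp in intron 10 (rank 20309). The last pair had support within 100 bp in replicate 3 alone, at ranks 14032 and 20002. A replicate 4 summit 1426 bp upstream of gcy-36 (rank 22257) was just beyond that distance from the former. Downstream, H13N06.2 lay 2394 bp away.

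**Figure D2:**
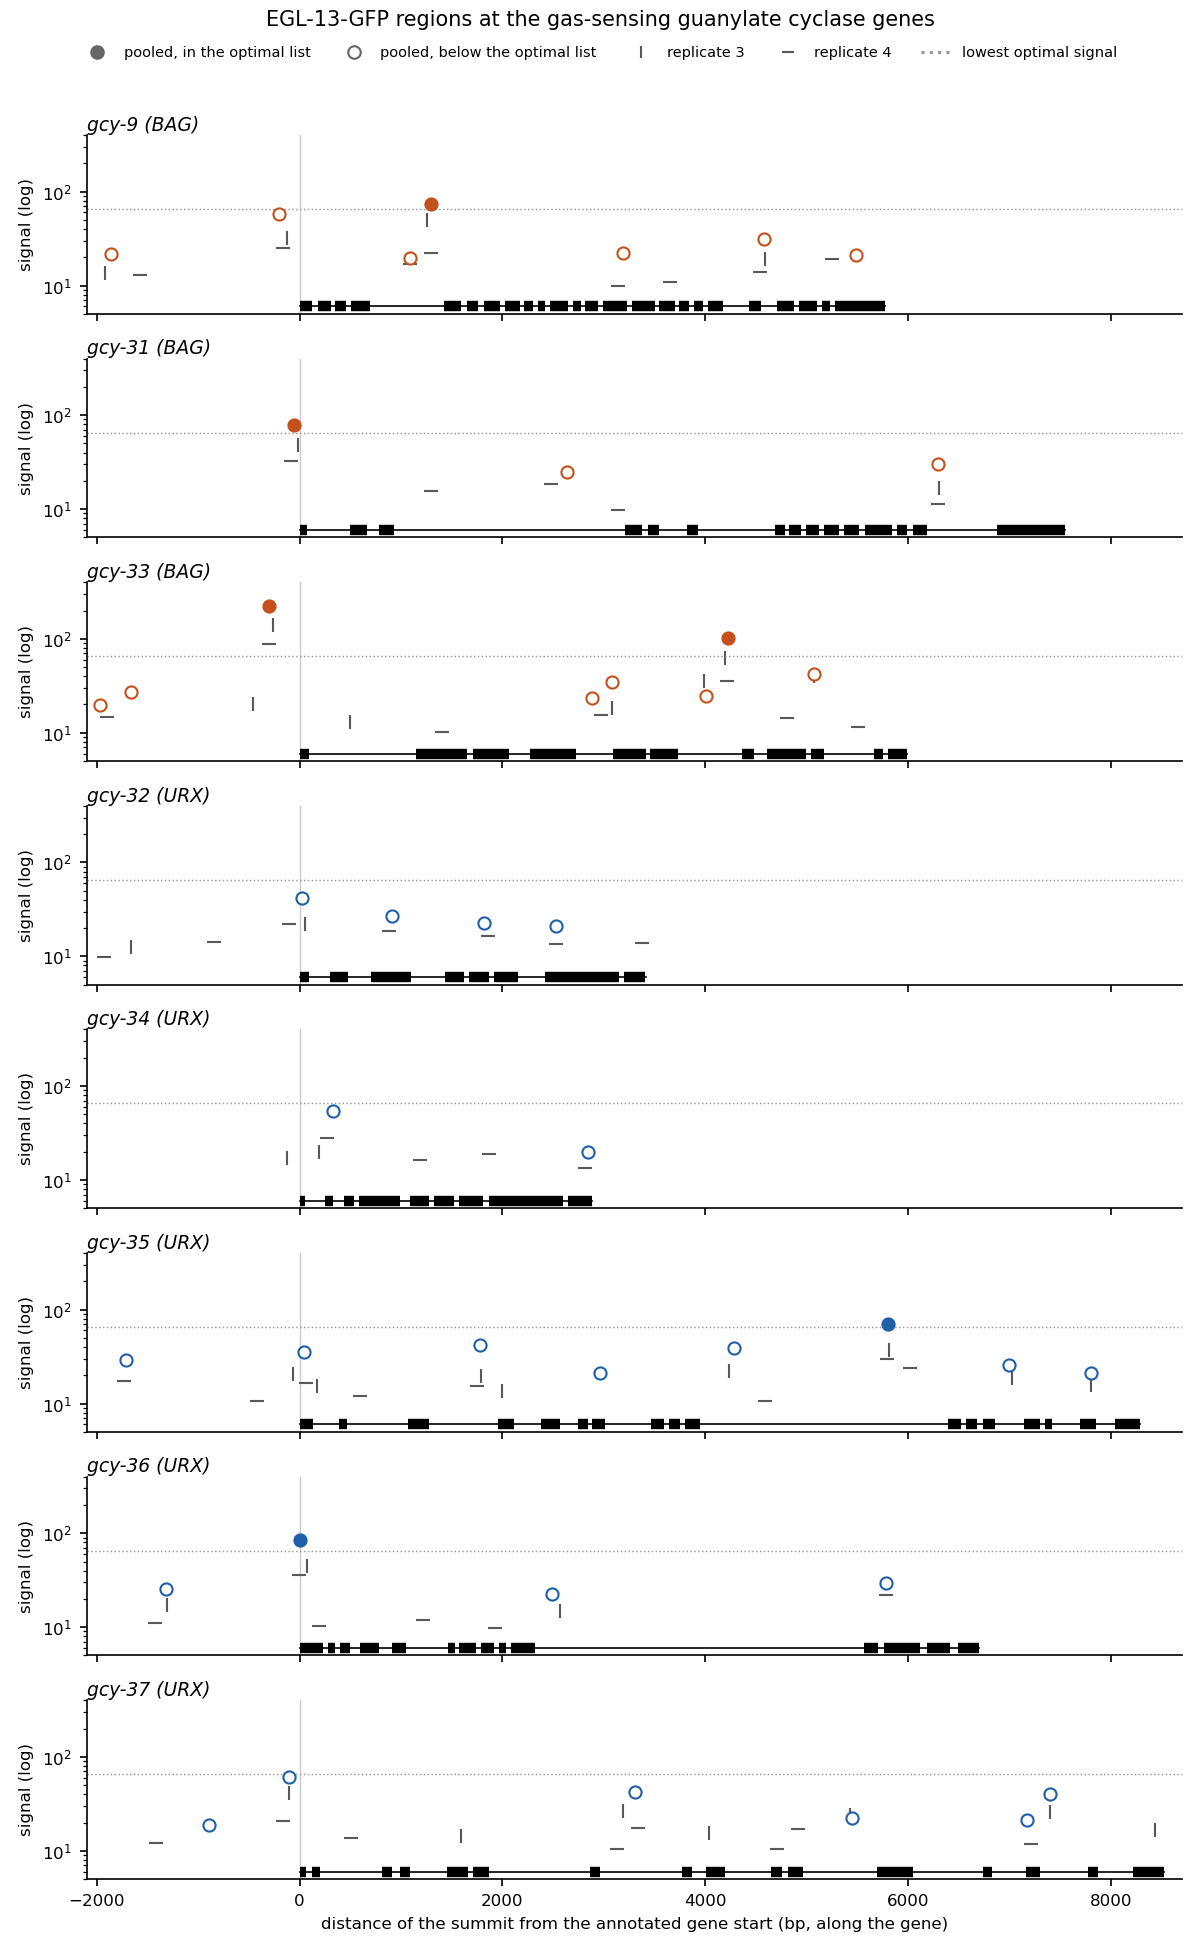
Signal value (y axis, log scale) of each region against the distance of its summit from the annotated gene start (x axis, bp along the gene) for the 8 genes, with pooled regions as circles (filled where optimal, orange BAG, blue URX) and replicate 3 and replicate 4 regions as vertical and horizontal dashes. Black boxes are exons of the longest transcript, and every gene has a pooled summit within 500 bp of its start. The optimal summits of gcy-9, gcy-35 and the weaker one of gcy-33 lie inside the gene, and that of gcy-36 lies 3 bp inside its start.

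gcy-35, which encodes the other subunit of the URX oxygen sensor, had its optimal region deep in the gene, beside another gene. The region (chrI:13330839-13331222) lay in intron 10, which is 2439 bp long, 5801 bp from the start of gcy-35 (WBGene00001555, chrI:13325230-13333513, plus strand). Its pooled signal was 71.2 at rank 2032, the weakest of the 6 optimal sites. Replicate 3 gave 37.2 at rank 2789, below its 2294 strongest, and replicate 4 gave 29.6 at rank 1957. The summits agreed within 7 bp in both. The same intron holds the gene T04D3.5 (WBGene00011434, chrI:13329174-13330947, minus strand), whose 5′ end was 84 bp from the summit, and a tRNA gene (WBGene00014501, chrI:13331147-13331218) 116 bp from it. The short gcy-35 transcript T04D3.4b.1 began 649 bp downstream. Of the 31-base words in this region, 85.6% occurred once in the genome and the most frequent had 36 copies. Which of these features the signal belongs to was not tested. Replicate 4 had a further summit in the intron at 6014 bp, at rank 2999, that the pooled list lacked.

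The start of gcy-35 was weaker, with a pooled signal of 35.2 at rank 6772, 47 bp inside the 5′ UTR. Replicate 4 had a summit within 100 bp at rank 7588, and replicate 3 had its own at 65 bp upstream, at rank 9089, just beyond that distance. Of the other 6 pooled regions, the intron 3 summit at 1780 bp (signal 42.3, rank 4639) had support in both replicates, at ranks 10568 and 9031. The summit at 4285 bp in intron 10 (rank 5369), inside T04D3.5, had it in replicate 3 (rank 7577), as did those at 6995 and 7798 bp (ranks 15405 and 24402). The summit 1709 bp upstream (rank 10907) had it in replicate 4 (rank 6358), and the coding exon summit at 2958 bp (rank 24446) in neither. On the upstream side the nearest gene was pde-1, which encodes a cyclic nucleotide phosphodiesterase, 6513 bp away, and on the other side the gene end overlaps that of casc-3.

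gcy-37, a soluble cyclase gene of URX, missed the optimal list by a small margin. Its strongest pooled region (chrIV:2159079-2159462) had a signal of 61.3 at rank 2509, with the summit 102 bp upstream of the gene start (WBGene00001557, chrIV:2150647-2159169, minus strand). Replicate 3 gave 41.2 at rank 2366 and replicate 4 gave 20.6 at rank 4205, so it was outside the 2294 strongest of either. No other protein-coding gene had this summit in its window. Its other pooled regions were 5. The intron 7 summit at 3302 bp (signal 42.0, rank 4712) had support in replicate 4 at rank 6550, while a replicate 3 summit at 3188 bp, rank 4948, was just beyond 100 bp. The intron summits at 7402 bp (rank 5038) and 5450 bp (rank 21336) had support in replicate 3 alone, the exon summit at 7174 bp (rank 23801) in replicate 4 alone, and the one 897 bp upstream (rank 29948) in neither. The neighbours of gcy-37 were C54E4.4, 2027 bp upstream, and C54E4.5, 1349 bp downstream.

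gcy-34, another soluble cyclase gene of URX, also had a region below the optimal list near its start. It (chrV:13385376-13385759) peaked in intron 2, 330 bp into the gene (WBGene00001554, chrV:13383019-13385898, minus strand), with a pooled signal of 54.6 at rank 2995. Replicate 4 gave 27.7 at rank 2205, within its 2294 strongest, but the closest summit of replicate 3, at 192 bp and rank 10351, lay more than 100 bp away. The replicate 3 region with that summit overlapped the pooled region, at a weaker rank than in replicate 4. The gene would enter a list made from replicate 4 alone. The other pooled region, in the 3′ UTR at 2839 bp and shared with the overlapping cathepsin gene cpz-2, ranked 27899. In replicate 4, 2 exon summits at 1871 and 1186 bp reached ranks 5224 and 7821 without a pooled counterpart. The gene upstream, somi-1, ends 159 bp from the gcy-34 start.

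gcy-32, whose protein is the closest of the 8 to GCY-34, had the weakest region of the 8 genes. The strongest (chrV:13915270-13915653) lay 28 bp inside the 5′ UTR (WBGene00001552, chrV:13912080-13915490, minus strand), with a pooled signal of 41.9 at rank 4750. Replicate 3 gave 21.9 at rank 7863. Replicate 4 had its own summit 101 bp upstream of the gene start, with 21.9 at rank 3649. The replicates therefore marked the 2 sides of the gene start, and no replicate 4 summit lay within 100 bp of the pooled one. The window of the chemoreceptor gene str-252, which starts 1005 bp away in the other direction, also holds the pooled summit. The remaining 3 pooled regions, in coding exons at 908, 1822 and 2532 bp, ranked 13429, 20538 and 24601 and had support in replicate 4 alone, at ranks 5403, 7794 and 13038. Downstream, C06B3.7 ended 494 bp away.

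All 8 genes had at least 1 pooled region, as did 69.0% of all protein-coding genes. There were 42 in windows of 65110 bp, or 0.645 per kb against 0.298 per kb over the windows of all genes. The optimal regions came to 0.922 per 10 kb against 0.268 for all genes. The density was highest at gcy-33 (1.00 pooled regions per kb) and gcy-9 (0.900), and lowest at gcy-31 (0.314) and gcy-34 (0.410). By annotation, 18 summits were in introns, 10 upstream, 9 in coding exons, 3 in 5′ UTRs and 2 in 3′ UTRs. Such shares over all pooled summits are not given here, so whether this split is usual cannot be read. Of the 36 regions below the optimal list, 29 ranked beyond 5000. The optimal list ends at rank 2294 and the pooled list at 30000, so most weaker regions of any gene rank beyond 5000.

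The regions nearest to the gene starts were set against the rest of the genome, a comparison chosen after seeing the data. A pooled summit lay within 500 bp of the start of all 8 genes, against 34.5% of all protein-coding genes. An optimal summit did so at 3 of the 8 (gcy-31, gcy-33 and gcy-36), against 6.46% of all genes. Among the first 5000 pooled regions the count was 7 of 8, gcy-35 being the exception, against 10.8% of all genes. The URX genes without an optimal region, gcy-32, gcy-34 and gcy-37, thus each had their strongest region within 500 bp of the gene start, at ranks 4750, 2995 and 2509. That of gcy-34 lay 330 bp inside the gene, in intron 2.

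The replicates were compared site by site. Each of the 6 optimal sites had a summit of both replicates within 100 bp, as did 2146 (93.5%) of all 2294 optimal regions. A region among the 2294 strongest of both replicates was found in the windows of 3 genes, gcy-31, gcy-33 and gcy-36, against 9.06% of all protein-coding genes. The other optimal genes each lacked 1 replicate at that depth: gcy-9 replicate 4 and gcy-35 replicate 3. Below the optimal list, 5 of the 36 pooled regions had a summit of both replicates: the upstream and intron 20 regions of gcy-9, the intron 14 region of gcy-31, the intron 3 region of gcy-35 and the upstream region of gcy-37. Of all 42 pooled regions, 23 had a replicate 3 summit, 25 a replicate 4 summit, 11 both and 5 neither. Such shares over all 30000 pooled regions are not given here, so whether this support is usual cannot be read. The windows held 35 regions in replicate 3 and 53 in replicate 4, of which 12 and 28 had no pooled summit within 100 bp. Those ranked from 4948 to 27943 in replicate 3 and from 2999 to 29708 in replicate 4.

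**Figure D3:**
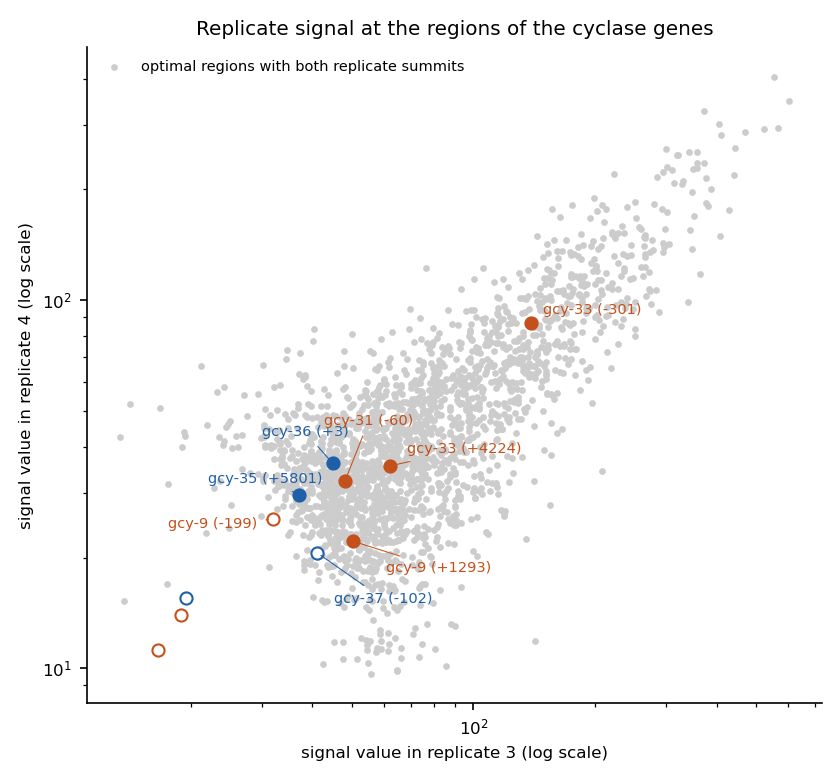
Signal value in replicate 4 (y axis, log scale) against replicate 3 (x axis, log scale) at the 11 regions of the cyclase genes with both summits within 100 bp, labelled with the bp from the gene start (filled optimal, hollow weaker, orange BAG, blue URX), over the 2146 optimal regions with both summits (grey). The gcy-33 upstream site stands apart from the other labelled sites, gcy-9 at 1293 bp lies low in replicate 4, and the 3 unlabelled hollow points are intron regions of gcy-9, gcy-31 and gcy-35.

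Shared reads between related genes were looked for, since a copy elsewhere can lend signal to a region. Of the 42 pooled regions, 35 consisted of 31-base words found once in the genome. The lowest share of such words was 73.7%, in the intron 10 region of gcy-36, and the share was 94.9% at the gcy-33 upstream site. The encoded GCY-32 and GCY-34 were 84.4% identical, and GCY-36 was 64.0% identical to GCY-34 and 62.5% to GCY-32, while GCY-31 and GCY-33 shared 31.9% and GCY-9 between 26.0% and 31.3% with the others. The regions nearest to the starts of gcy-32, gcy-34 and gcy-36 were nevertheless all single-copy at this word length. The start region of gcy-35 was 90.1% single-copy, with a word of 364 copies, and its intron 13 region 84.2%, with a word of 146 copies. The part of repeated sequence in those signals was not tested. GC content within 50 bp of the summit was 51.5% at the gcy-33 upstream site, 45.5% at gcy-9 and gcy-36, 40.6% at gcy-31 and 37.6% at the gcy-33 intron site, against a median of 46.5% for optimal and 34.7% for pooled regions. At gcy-35 it was 61.4%.

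Genes listed as possible partners of the cyclases were read in the same windows. The list took in phosphodiesterase genes whichever cyclic nucleotide their enzymes act on, and the calcineurin gene tax-6. A place in it does not show that a gene acts on cyclic GMP. Of 15 such genes, called cyclic GMP pathway partners here (channels, phosphodiesterases, kinases and modulators), 9 (60.0%) had an optimal region. The share was 62.5% for the cyclase genes and 12.1% for all protein-coding genes. The strongest were the phosphodiesterase gene pde-4 (signal 167, rank 503), the calcineurin gene tax-6 (146, rank 637), the phosphodiesterase gene pde-6 (125, rank 818), the globin gene glb-5 of the URX oxygen response (82.1, rank 1631) and the cyclic GMP-dependent kinase gene egl-4 (76.2, rank 1819). At tax-6, pde-6 and egl-4 the strongest region had no replicate 4 summit within 100 bp. The channel genes tax-2 and tax-4 had none, and their best pooled ranks were 12800 and 4059. Near the gene start the lists stood apart in count: 1 of the 15 partners (6.67%) had an optimal summit within 500 bp, and 9 (60.0%) a pooled summit, where the cyclase genes had 3 and 8 of 8. Several partner genes are long, which gives a window more room for a region. Of those named, egl-4 (32526 bp), pde-4 (23997 bp), pde-6 (9959 bp) and tax-6 (8732 bp) exceed the longest cyclase gene, 8523 bp, and glb-5 (5374 bp) does not. Every partner longer than 8523 bp had an optimal region, so the shares are not matched for length. The part of length was not tested.

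The remaining guanylate cyclase genes of the genome annotation, together with daf-11 and odr-1, carried optimal regions in 3 of 25 cases (12.0%). The share was 12.1% for all protein-coding genes and 15.5% for those within the length range of the gas-sensing genes. The 3 were gcy-28 (signal 122, rank 845), gcy-29 (80.5, rank 1682) and gcy-12 (66.6, rank 2234). The median length of these 25 genes, 5784 bp, was near that of the gas-sensing ones. Of the 3, gcy-28 (27743 bp) exceeds the longest gas-sensing gene, 8523 bp, and gcy-29 (7897 bp) and gcy-12 (7572 bp) do not. The lists were not matched for receptor or soluble type. A pooled region was present at 20 (80.0%), a pooled summit within 500 bp of the start at 10 (40.0%), and a region among the 2294 strongest of both replicates at 1 (4.00%), where the gas-sensing genes had 100%, 100% and 37.5%. The lists were chosen with results of these data known and the differences were not tested.

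**Figure D4:**
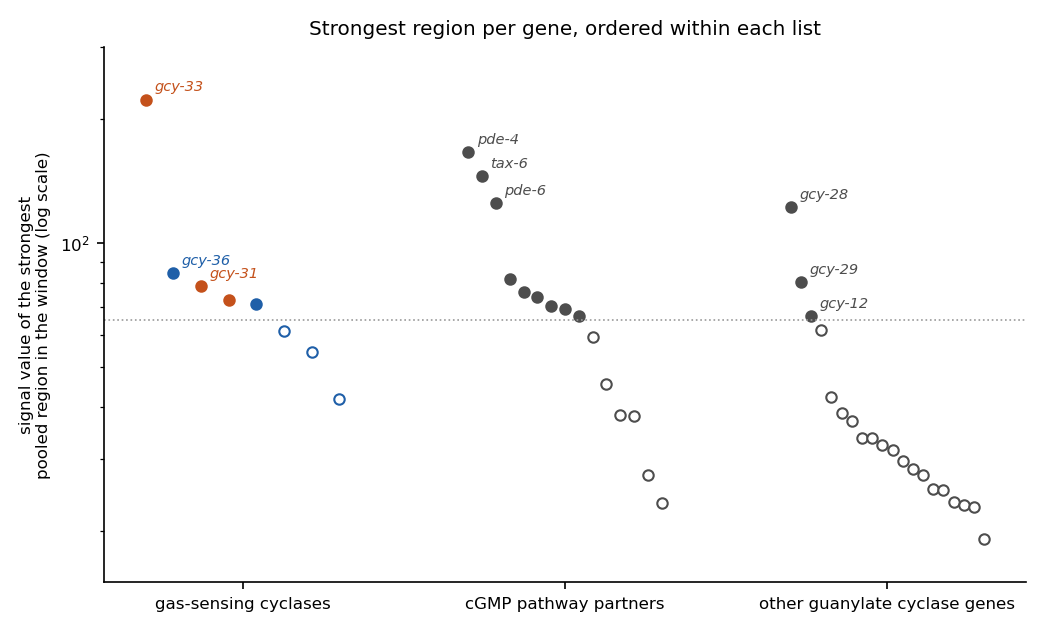
Signal value of the strongest pooled region in the window (y axis, log scale) of each gene, ordered within 3 lists, with filled points for genes whose strongest region is optimal. Of the gas-sensing cyclases (orange BAG, blue URX) 5 of 8 lie above the lowest optimal signal of 65.3 (dotted line), against 9 of 15 cyclic GMP pathway partners and 3 of 25 other guanylate cyclase genes, 5 of which have no pooled region and no point.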

How the data were processed

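ChIP-seq libraries of 2 biological replicates (3 and 4, 1 group) were used as region lists in narrowPeak format that the authors deposited. Per the deposited file descriptions, regions were called on each replicate and on the pooled reads with a control alignment. They served as input to IDR, which compares the ranks of regions between replicates. The aligner, peak caller and threshold were not given in the sources used here. Each region's signal value comes from the authors' caller, on an unstated scale, and the −log10 q value is as deposited. All 2294 optimal regions were identical to the 2294 strongest pooled regions. A place in the optimal list is thus a cut on pooled signal and does not show that the replicates agree at that region. Lists on ce10 were not used here, and bases at 1 further site are not reported here.

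Summits (column 2 plus column 10, made 1-based) were placed on Ensembl release 115 genes of WBcel235, which is ce11, and bases were read from the RefSeq genome of that assembly. The window, the 100 bp support distance and the 31-base words were applied with Python 3.11.15, NumPy 2.4.6, pandas 2.3.3, Biopython 1.88 (identity from translated longest coding sequences, global alignment) and matplotlib 3.10.9. The counting was tested on simulated data. Named were the 8 genes, their neighbours, every gene or nearby noncoding gene sharing a reported summit, and at most the 5 strongest genes with an optimal region of each further list; tax-2 and tax-4 were named after their values were seen. The genes and lists were chosen with earlier results of these data known, no test was made, and replicates share 1 strain. Alternatives covered the window, the threshold, the support distance and each replicate alone.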

Additional observations from a re-analysis of the deposited data

How the results depend on the processing

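Of 30 alternative settings, 26 left the count within 1.5 times its value and 4 did not. The 5 genes with an optimal region came to 2 (gcy-31 and gcy-33, against 9.84% of all genes) when the gene body was left out of the window, and to 1 (gcy-33, against 7.09%) in the stronger 50% of the optimal list. Without the gene body gcy-36 left because its pooled summit lies 3 bp inside the annotated start, while its replicate 4 summit lies 7 bp upstream. The 3 genes with a strong region in both replicates came to 6 (against 14.0%) when the first 4588 regions of each replicate counted as strong, and to 1 (gcy-33, against 5.27%) with the first 1147. Lists built from a single replicate gave 5 genes without replicate 3 (against 11.6% of all genes), where gcy-9 left and gcy-34 entered. Without replicate 4 they gave 4 genes (against 11.8%), where gcy-35 left. The optimal region of gcy-35 was also lost when each summit went to its nearest protein-coding 5′ end, which left 4 genes (against 9.57%). It was lost too when summits near tRNA, snoRNA or snRNA genes were left out, an alternative chosen after seeing the data. This left 4 genes (against 11.4%). The latter setting also removed the gcy-33 upstream site, and gcy-33 was kept by its intron site at rank 1169. That of gcy-36 lost its replicate 3 support within 50 bp. The causes were not tested beyond what each construction removes. No paired analysis was possible because there is 1 group. The read depth is unknown and limits how far a region outside the optimal list can be read.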

Other observations

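Several of the printed stretches hold a shorter string, noticed after the sequences were seen. CCGGA, searched on both strands (reverse complement TCCGG) within 100 bp of the summit, occurred 3 times at the gcy-9 intron site (15, 81 and 94 bp from the summit), 2 times at the gcy-31 start (32 and 60 bp) and at the gcy-33 intron site (55 bp), and at the weaker gcy-9 upstream site (22 bp). It was present at 360 (15.7%) of all optimal regions and 4162 (13.9%) of all pooled regions. No such string lay at the gcy-33 upstream site or at the searched sites of gcy-32, gcy-34, gcy-35 and gcy-36. The gcy-37 start site was not used here, so the string is not compared between BAG and URX genes. Because the string was picked from these sequences, the counts are a description and no test was made.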
